A study of Mus musculus with 9 samples.

Results

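Double-labelled cells of the mouse paraventricular hypothalamus (PVH) were compared with cfos-only cells of the same region. The double-labelled group is called overlap in the labels and has 3 libraries, and the cfos group has 3 libraries, so that 6 of the 9 libraries of the series entered the comparison and the 3 mCherry libraries were set aside. All genes of the count table were used. The design text names CRD-labelled, VFF-labelled and double-labelled cells, and does not say which of them the cfos label stands for, so the groups keep the names overlap and cfos. Both groups are given as neurons from brain, taken from sections by laser-capture microdissection, a method that picks chosen cells under a microscope. Each library was read by Smart-3SEQ, which counts the 3′ ends of polyadenylated RNA. Strain, genotype, sex, age, stimulus, number of animals and number of cells per library are stated in none of the sources used. The libraries are called biological replicates with no animal named, so that a p-value here speaks of library-to-library spread, which may be technical.

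The PVH is the part of the hypothalamus where neuroendocrine and autonomic neurons sit together. Its secretory neurons make vasopressin, oxytocin, corticotropin-releasing hormone or thyrotropin-releasing hormone, pack them into dense-core granules and release them through calcium-triggered vesicle fusion, and most PVH neurons use glutamate as their fast transmitter. The cfos group bears the name of Fos, an immediate early gene. Synaptic activity turns such genes on within minutes through factors like CREB and SRF, and their RNA is gone again soon after. How the cfos label was made is not given in the sources used here.

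The libraries set limits on this comparison before any gene is considered. Total counts were 597898, 545568 and 504785 in overlap 1, 2 and 3, and 700556, 1871820 and 3414593 in cfos 1, 2 and 3. The count of cfos 2 was above that of cfos 3 in 0 of 54838 genes, and the difference between the 2 was smaller than sampling noise, with a chi-square per gene of 0.824 where every other pair had 9.08 to 58.6. The pair was counted as 1 sample, the rounded mean of both, called cfos 2/3 below, which leaves 3 overlap and 2 cfos replicates. Across the genes tested, log2 levels correlated at 0.407 to 0.426 between overlap replicates, at 0.412 between cfos 1 and cfos 2/3, and at 0.275 to 0.391 between replicates of different groups. These are descriptions across genes, which share libraries and depth. At an equal depth of 504785 counts, 17355 to 20970 genes were seen in the overlap columns and 17473 to 17996 in the cfos columns. Predicted genes, which carry only a Gm or Rik name, took 25.5% to 31.7% of the counts in overlap, 16.9% in cfos 1, and 25.5% and 24.6% in cfos 2 and cfos 3.

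Fos RNA set the 2 cfos replicates apart. In CPM (counts scaled to the same library size in every replicate), Fos stood at 74.9, 218 and 292 in the overlap replicates, at 293 in cfos 1 and at 25.4 in cfos 2/3. The cfos replicates lay on both sides of the whole overlap range, and cfos 2/3 had the least Fos RNA of all replicates. Over total counts, Fos stood at 20.8 and 22.8 CPM in cfos 2 and cfos 3, inside the range of the mCherry libraries (11.2 to 30.1 CPM), and at 291 CPM in cfos 1. Whether the cells of cfos 2 and cfos 3 fit their label was not tested. Every direction below therefore rests on 1 cfos library with high Fos RNA and 1 averaged pair with low Fos RNA, and gene groups are also given against each of them alone.

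Over all genes, no difference passed the test. Of 13070 genes tested with edgeR's quasi-likelihood test, 0 (0%) had a Benjamini-Hochberg adjusted p under 0.05, and the smallest adjusted p was 0.388. At an unadjusted p under 0.05, 998 genes (7.64%) stood higher in overlap and 264 (2.02%) stood lower. All 3 overlap replicates were above both cfos replicates in 2040 genes (15.6%) and below both in 1550 genes (11.9%). These shares are the background against which every gene group below is read. The test was limited by the spread between replicates, with a biological coefficient of variation of 0.946, and by 2 cfos replicates. DESeq2, on the same genes, called 504 (464 higher and 40 lower), and limma-voom with sample weights called 0, with 695 higher and 645 lower at an unadjusted p under 0.05. Against cfos 1 alone, where 16930 genes passed the filter, the same edgeR test called 13 genes, with 1672 higher and 683 lower at an unadjusted p under 0.05. Against cfos 2/3 alone, with 16323 genes, it called 0, with 1065 higher and 563 lower. Without overlap 1, 2 or 3 it called 0, with 594, 540 and 609 higher and 161, 225 and 209 lower.

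The direction of the differences went with the level of the gene. Among 1790 genes with a mean under 20 CPM, the median log2 fold change (overlap minus cfos) was 0.23, 13.1% stood higher at an unadjusted p under 0.05 and 0.894% stood lower. Among 546 genes of 200 to 500 CPM the median was -0.19, 1.83% stood higher and 8.79% lower. Among the 59 genes above 500 CPM the median was -0.31, and 3 stood higher while 17 (28.8%) stood lower. The median over all 13070 genes was 0.12, and 46.7% of them were below 0. A group of highly expressed genes therefore starts from a lower background than a group of rare ones, and the part of level in each group's count was not tested.

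**Figure D1:**
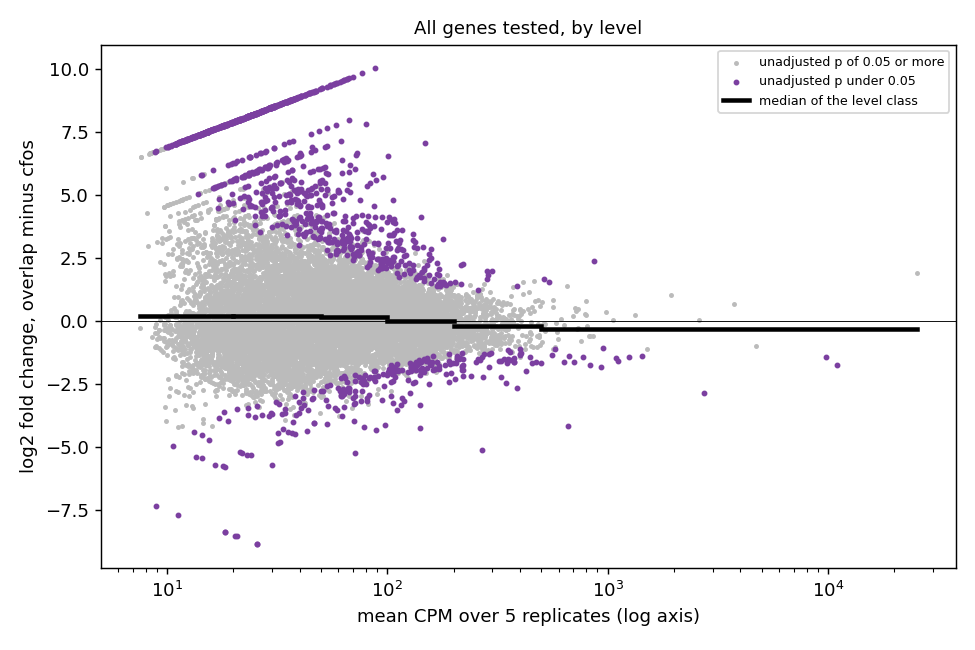
Fitted log2 fold change (overlap minus cfos) of 13070 genes against their mean CPM over the 5 replicates, on a log axis. Purple points have an unadjusted p under 0.05, and black lines give the median of each level class, from 0.23 under 20 CPM to -0.31 above 500 CPM; the straight upper bands are genes with 0 counts or very few in cfos, whose fitted value depends on the prior count.

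Among named protein-coding genes with a mean of at least 20 CPM and groups that did not overlap, the lower side was led by Pclo and Ntm. Pclo codes for piccolo, a scaffold of the active zone where vesicles dock (chromosome 5, 14514918 to 14863459, mm10). Pclo stood at 135, 127 and 115 CPM in overlap, at 718 CPM in cfos 1 and at 854 CPM in cfos 2/3. The overlap replicates were close together and far below both cfos replicates, with a log2 fold change of -2.64 ± 0.46 (SE) and an unadjusted p of 0.000207. Ntm codes for neurotrimin, a cell adhesion protein anchored in the neuronal membrane, and stood at 122, 116 and 135 CPM against 837 and 526 CPM. Its log2 fold change was -2.45 ± 0.48, again with little spread among the overlap replicates. Predicted genes lie on the opposite strand of both. Both genes kept their direction in every alternative run, with log2 fold changes of -2.83 to -2.59 for Pclo and -2.92 to -2.15 for Ntm.

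Syt1, the calcium sensor that triggers transmitter release, stood at 140.4, 68.3 and 126 CPM in overlap and at 669 and 363 CPM in cfos (log2 fold change -2.21 ± 0.56). Map1b, a microtubule-associated protein of growing axons, stood at 492, 569 and 324 CPM against 2251 and 1046 CPM (-1.83 ± 0.50). For both, every overlap replicate was below both cfos replicates, as the rule that named them required, and cfos 1 was the higher of the 2. C1ql3, a secreted C1q-like protein that acts at synapses, stood at 43.1, 49.3 and 17.4 CPM against 278 and 248 CPM (-2.84 ± 0.74). Rab5b, a small GTPase of early endosomes, stood at 39.3, 49.3 and 58.8 CPM against 184 and 338 CPM (-2.41 ± 0.68). In both genes the lowest cfos value was several times the highest overlap value. Pnmal2, of the paraneoplastic antigen family, stood at 89.9, 144 and 67.5 CPM against 604 and 295 CPM. Gcfc2, which overlaps Mrpl19 on the opposite strand so that reads of the pair cannot be told apart without a known strand setting, stood at 16.9, 43.7 and 10.9 CPM against 334 and 124 CPM.

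Apoe, the apolipoprotein that astrocytes secrete, stood at 118, 91.1 and 47.9 CPM against 2904 CPM in cfos 1 and 146 CPM in cfos 2/3. Nearly all of its difference lay in cfos 1, and its log2 fold change went from -5.24 against cfos 1 alone to -0.84 against cfos 2/3 alone.

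**Figure D2:**
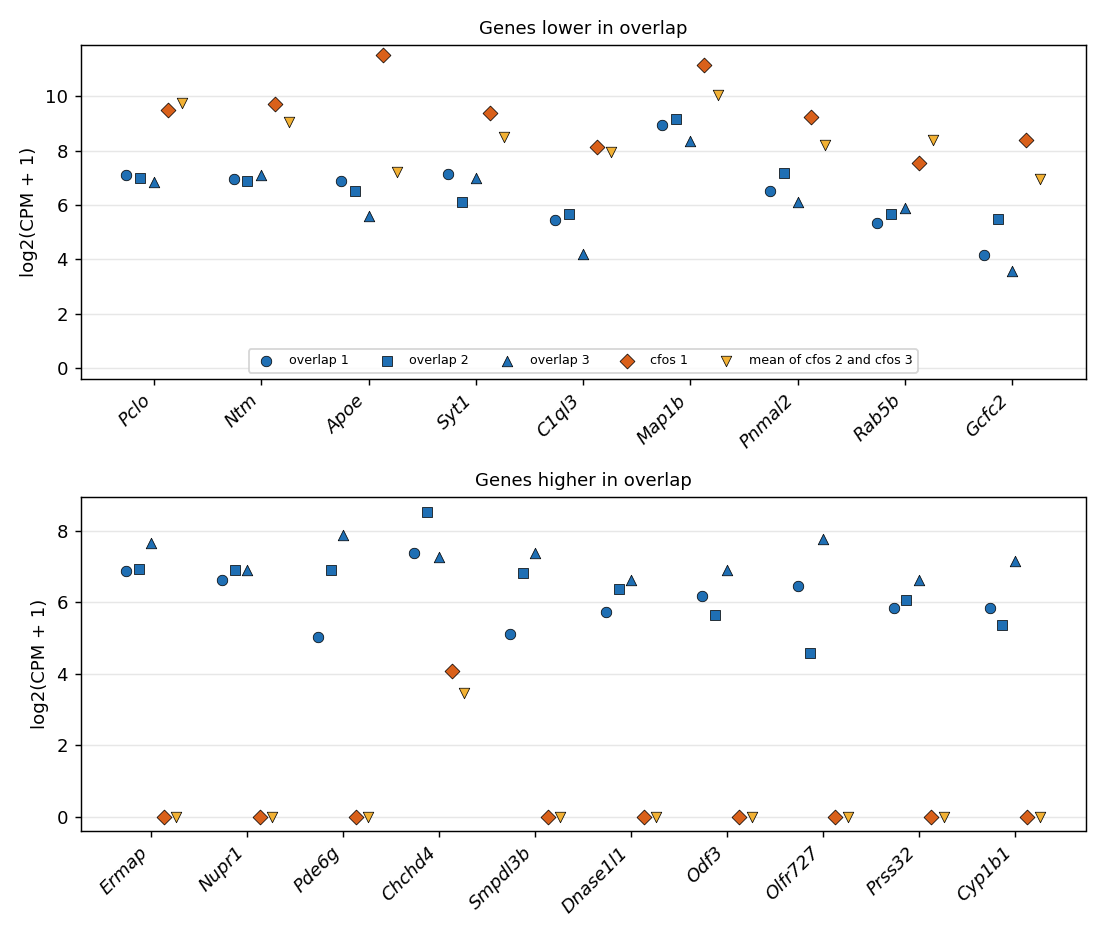
Level of the leading genes on each side, 9 lower and 10 higher, as log2(CPM + 1), 1 symbol per replicate. The genes were picked for groups that did not overlap, so in the upper panel the 3 overlap replicates (blue) lie below both cfos replicates. For Apoe the cfos replicates are far apart (2904 and 146 CPM). In the lower panel 9 of 10 genes have 0 counts in both cfos replicates.

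The higher side was led by genes with no counts in cfos. Of the 10 genes named by the same rule, 9 had 0 counts in both cfos replicates, so that their folds are lower bounds against 3 counts over the cfos group. Ermap, an erythroid membrane protein of the blood group Scianna, stood at 116, 122 and 200.3 CPM in overlap and was at least 142.5-fold higher there. Nupr1, a small stress-response chromatin protein, stood at 97.4, 119.6 and 119.7 CPM and was at least 111.1-fold higher. The others were Pde6g, Smpdl3b, Dnase1l1, Odf3, Olfr727, Prss32 and Cyp1b1, at 22.8 to 233 CPM in single overlap replicates and at least 71.9-fold to 121.5-fold higher. They include a phototransduction subunit (Pde6g), a sperm-tail protein (Odf3), an olfactory receptor (Olfr727) and a serine protease (Prss32). Dnase1l1, Odf3 and Prss32 overlap other genes on the opposite strand. Chchd4, which folds imported proteins in the mitochondrial intermembrane space, was the only one of the 10 with counts in cfos, at 165, 368 and 152 CPM against 15.8 and 10.1 CPM (log2 fold change 4.15 ± 0.86, unadjusted p of 0.000730).

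Genes with no counts in cfos made up a large share of the higher side. Of the 998 genes higher at an unadjusted p under 0.05, 483 had 0 counts in both cfos replicates. In all, 294 tested genes had 0 counts in both cfos replicates and counts in every overlap replicate, while 8 genes had 0 in every overlap replicate and counts in both cfos replicates. The filter favours the first kind, since a gene passed by reaching the minimum count in any 2 replicates and overlap has 3 of them. This also applies to genes with few counts in cfos. Of the 294 genes, 175 were predicted genes, 109 had counts in all 3 mCherry columns and 77 had 0 there. Predicted genes made up 45.6% of the genes higher at an unadjusted p under 0.05, 16.7% of those lower and 29.6% of all tested, while named protein-coding genes made up 42.9%, 77.7% and 64.3%. Olfactory and vomeronasal receptor genes made up 4.01% of the higher genes, 1.14% of the lower and 2.23% of all. In bulk libraries of captured cells, fewer cells of a type and less RNA per cell cannot be told apart, and this holds for each group below.

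Genes of the neuronal release machinery stood lower in overlap as a group. Of 25 genes for vesicle fusion (SNARE proteins, synaptotagmins, complexins, synapsins and vesicle proteins), 23 were tested, all 23 had a log2 fold change below 0, and the median was -1.29, against 0.12 over all genes tested. The overlap replicates were below both cfos replicates in 14 of the 23, against 11.9% of all genes, and 5 of the 23 stood lower at an unadjusted p under 0.05, against 2.02%. No member passed the adjusted test. The median was -1.69 against cfos 1 alone and -1.04 against cfos 2/3 alone, where the medians over all genes of the main test that were also tested there were 0.53 and 0.09. Snap25, a SNARE of the plasma membrane, stood at 56.2, 83.5 and 58.8 CPM against 392 and 143 CPM (-2.01 ± 0.69). Syn2, which tethers vesicles to the reserve pool, stood at 69.3, 58.8 and 26.1 CPM against 197 and 211 CPM (-1.98 ± 0.76), and lies opposite Timp4. Both had every overlap replicate below both cfos replicates. Sv2a, a vesicle glycoprotein, had a smaller difference of -0.60 ± 0.49, also with groups that did not overlap. Stx1a, under the filter and named after its values were seen, lay the other way through overlap 3 alone. It had 0, 0 and 69 counts in overlap and 5 and 24 in cfos. With no count filter 24 of the 25 genes were below 0.

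Of 10 active zone scaffolds 9 were tested and 8 were below 0, with a median of -0.80. Beside Pclo, Ppfia2, a liprin that organises the active zone, stood at 33.7, 22.8 and 10.9 CPM against 125 and 65.2 CPM (-2.07 ± 1.11). The groups did not overlap in 4 of the 9, all of them lower in overlap. Rims2, which links vesicles to calcium channels, overlapped between the groups at 200.3, 110.1 and 34.8 CPM against 175 and 172 CPM.

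All 20 cytoskeletal and axonal genes were tested, 18 were below 0 and the median was -1.23. The groups lay apart with overlap lower in 12, and 6 stood lower at an unadjusted p under 0.05. Map1a, the partner of Map1b in mature axons and dendrites, stood at 376, 387 and 274 CPM against 1471 and 655 CPM (-1.62 ± 0.49), with Ppip5k1 on the opposite strand. Map2, the marker protein of dendrites, stood at 110.5, 137 and 78.4 CPM in overlap and at 478 and 291 CPM in cfos (-1.82 ± 0.56). Nefl, the light neurofilament subunit, stood at 71.2, 142 and 98.0 CPM against 534 and 261 CPM (-1.93 ± 0.59), and overlaps Nefm on the opposite strand. In each of these 3 genes cfos 1 was the highest replicate and no overlap replicate reached cfos 2/3. The median of the cytoskeletal genes was -1.58 against cfos 1 alone and -0.55 against cfos 2/3 alone.

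Motor proteins, which carry vesicles along microtubules, had 14 of 15 tested members below 0 and a median of -0.92. Kif1a, the kinesin of synaptic vesicle precursors and dense-core granules, stood at 165, 299.8 and 152 CPM against 876 and 389 CPM (-1.62 ± 0.55). Kif3a and Kif5a had log2 fold changes of -1.02 ± 0.47 and -0.92 ± 0.49, with groups that did not overlap. Kif1a was the only motor at an unadjusted p under 0.05, and the group's median was -0.34 against cfos 2/3 alone.

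On the receiving side of the synapse, 20 of 22 genes for postsynaptic scaffolds and calcium signalling were tested, 17 were below 0 and the median was -1.05. The groups lay apart with overlap lower in 12, and 3 were lower at an unadjusted p under 0.05. Camk2b, a subunit of the calcium/calmodulin kinase, stood at 176, 290.4 and 244 CPM against 505 and 593 CPM (-1.21 ± 0.48). Its inhibitor Camk2n1 stood at 133, 49.3 and 74.0 CPM against 259.8 and 277 CPM (-1.65 ± 0.65). The cfos replicates were alike for the kinase and its inhibitor. Dlg4, the scaffold PSD-95, had a smaller difference of -0.61 ± 0.51.

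Ionotropic glutamate receptors lay in both directions. Of 12 tested genes 9 were below 0, with a median of -0.35, and the groups lay apart with overlap lower in 4 and higher in 3. The AMPA receptor subunit Gria1 stood at 50.6, 64.5 and 19.6 CPM against 189.5 and 199 CPM (-2.11 ± 0.81). Gria2, the subunit that blocks calcium entry, stood at 311, 459 and 446 CPM against 1042 and 619 CPM (-1.03 ± 0.47), and Gria4 at -1.24 ± 0.77. The kainate receptor subunit Grik1 lay the other way, at 119.8, 304 and 277 CPM against 89.0 and 89.8 CPM (1.38 ± 0.66), as did Grik4 (1.56 ± 1.0) and the NMDA receptor subunit Grin2a (1.81 ± 1.39). Of these genes only Gria1 had an unadjusted p under 0.05. Gria1 and Grik1 were each alike in the 2 cfos replicates, so their directions did not turn on which was used.

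GABA receptor genes had 11 tested members, 6 below 0 and a median of -0.14. Gabrg3, a rarer gamma subunit that shares its locus with predicted genes on the other strand, stood at 95.5, 129 and 159 CPM against 84.7 and 29.3 CPM (1.17 ± 0.87). The groups did not overlap for Gabrg3, and 0 of the 11 genes had an unadjusted p under 0.05.

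Sodium, calcium and HCN channels had 18 of 20 tested members below 0, a median of -0.76, and 7 members apart with overlap lower. Scn2a, a sodium channel of the axon initial segment, stood at 234, 289 and 253 CPM against 607 and 642 CPM (-1.27 ± 0.45, unadjusted p of 0.0177). Cacna1a, the pore of the P/Q-type calcium channel that drives transmitter release, stood higher at 333, 330.2 and 337 CPM against 205 and 249 CPM (0.55 ± 0.48), the only member apart in that direction. Replicates within each group were close for both genes. Ion pumps and neuronal carriers had 14 of 15 tested members below 0 and a median of -1.04. Atp1b1, the beta subunit of the sodium pump, stood at 71.2, 235 and 137 CPM against 586 and 258 CPM (-1.51 ± 0.64), and lies opposite Nme7. Slc12a5, the chloride extruder KCC2 of neurons, was the member above 0, at 187, 478 and 906 CPM against 181 and 309 CPM (1.09 ± 0.68), with overlapping groups. Potassium channels, 37 tested, had 21 members above 0 and a median of 0.31, which was -0.25 without overlap 2 and -0.04 with limma-voom.

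**Figure D3:**
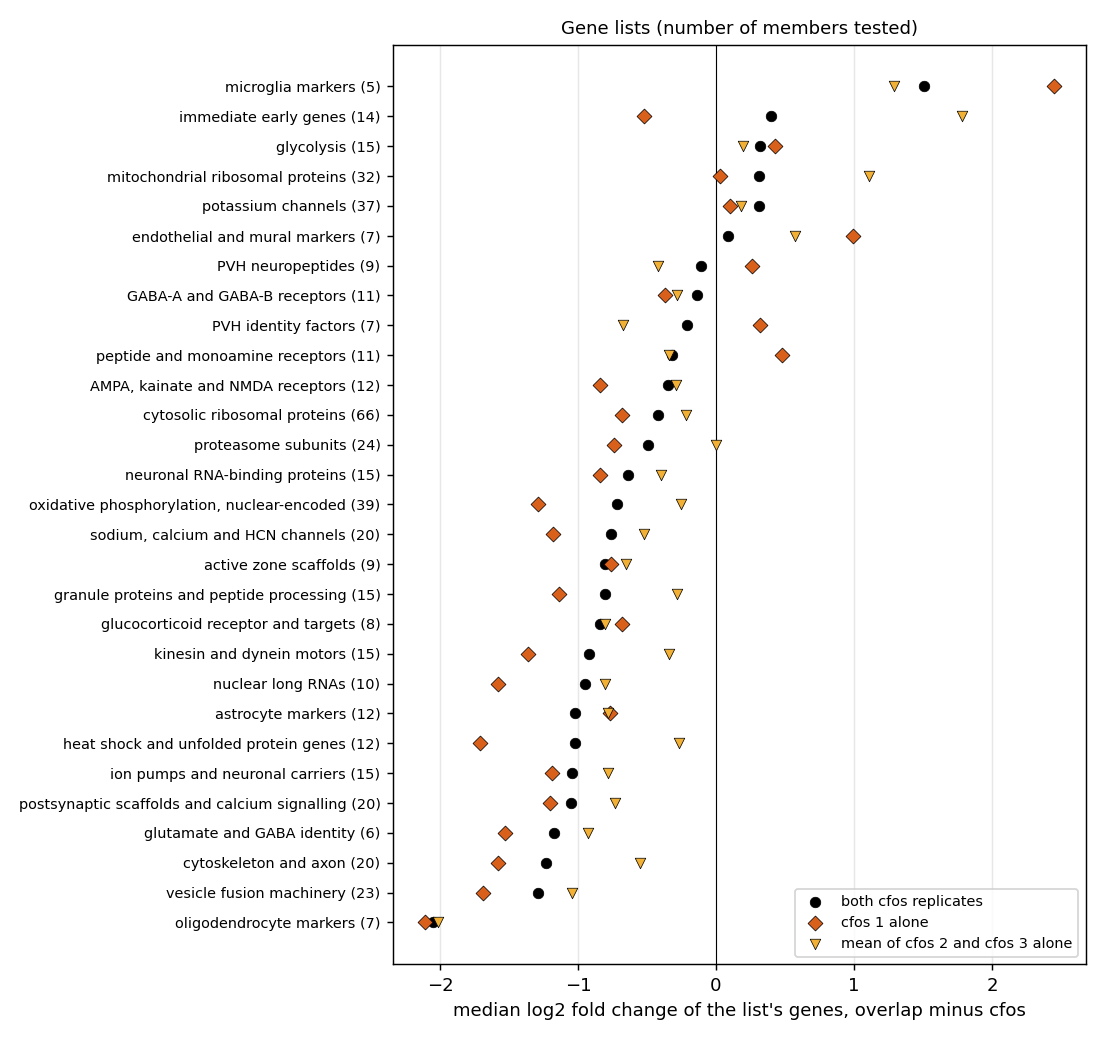
Median log2 fold change (overlap minus cfos) of each gene list with at least 5 members tested, over the members tested, against both cfos replicates (black), against cfos 1 alone (orange diamonds) and against cfos 2/3 alone (yellow triangles). The synaptic, cytoskeletal and oligodendrocyte lists lie below 0 against either cfos replicate, while the immediate early genes lie at -0.52 against cfos 1 and at 1.78 against cfos 2/3.

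The abundant long RNAs that stay in the nucleus stood lower in overlap. Meg3, an imprinted RNA abundant in neurons (chromosome 12, 109541001 to 109571726), stood at 5982, 7031 and 4160 CPM against 26970 and 10910 CPM (-1.73 ± 0.53). Malat1, an RNA of nuclear speckles, stood at 6576, 6314 and 4772 CPM against 22010 and 9173 CPM (-1.40 ± 0.51). Snhg11, a neuronal host gene of small nucleolar RNAs, stood at 361, 873 and 684 CPM against 2302 and 1230 CPM (-1.47 ± 0.51). No overlap replicate reached either cfos replicate in these genes, and cfos 1 was the highest replicate in each. All 10 tested members of the list were below 0, with a median of -0.95, and 3 of them had an unadjusted p under 0.05. The list's 1 untested member lay the other way: Xist, the RNA of X inactivation in female cells, had 26, 7 and 1 counts in overlap and 0 in all 3 cfos columns, although cfos was sequenced more deeply. It was named after its values were seen, the sex of the animals is not given in the sources used here, and the part of sex in the differences between the groups was not tested. The summed level of the list was 10780 to 15430 CPM in overlap, 23310 CPM in cfos 2/3 and 52920 CPM in cfos 1.

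The hormones of the PVH did not separate the groups, with 1 gene apart on the higher side. Crh, corticotropin-releasing hormone, which starts the pituitary stress response (chromosome 3, 19693401 to 19695396), stood at 124, 70.2 and 32.7 CPM in overlap and at 28.7 and 2.63 CPM in cfos. The groups did not overlap, although overlap 3 and cfos 1 were close, and the log2 fold change of 2.30 ± 1.42 had an unadjusted p of 0.139. Oxt, oxytocin, stood at 73.0, 1173 and 161 CPM against 488 and 522 CPM. The spread among the overlap replicates was wider than the difference of -0.11 ± 0.96, and the direction turned without overlap 1 or overlap 3. Avp, vasopressin, stood at 35.6, 180.3 and 21.8 CPM against 40.2 and 17.5 CPM (1.46 ± 1.28), with overlap 2 again the highest. Trh, thyrotropin-releasing hormone, stood at 24.3, 36.1 and 8.71 CPM against 17.2 and 35.0 CPM. Of 21 peptide genes in the list 9 were tested, 5 were below 0 and the median was -0.11.

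Single peptide genes lay in both directions. Tac2, which codes for neurokinin B, stood at 1.87, 1.90 and 4.35 CPM in overlap against 129 and 26.3 CPM in cfos (-4.78 ± 1.5, unadjusted p of 0.00983). Sst, somatostatin, had 4, 0 and 0 counts in overlap and stood at 28.7 and 24.5 CPM in cfos (-3.32 ± 2.06). Both were near their detection limit in overlap, where 3 counts are 5.02 to 5.94 CPM of the total. Vip, vasoactive intestinal peptide, was under the filter, with 0 counts in every overlap replicate and 9 and 28 counts in cfos, which makes it at least 6.29-fold higher in cfos. It was named after its values were seen. Growth hormone-releasing hormone (Ghrh) had 13, 0 and 24 counts in overlap and 0 and 2 in cfos. Tac1, the gene of substance P, under the filter and named after its values were seen, had 0, 0 and 20 counts in overlap and 1 and 6 in cfos. Only Tac2 among the 9 tested peptide genes had an unadjusted p under 0.05.

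Proteins of the granules that carry peptides had 12 of 15 tested members below 0, a median of -0.80, and 4 members apart with overlap lower. Chga, chromogranin A, stood at 58.0, 58.8 and 47.9 CPM against 239.7 and 178 CPM (-1.92 ± 0.70). Chgb, chromogranin B, stood at 35.6, 15.2 and 13.1 CPM against 158 and 109.5 CPM (-2.64 ± 1.0). Both granins, which drive granule formation, had unadjusted p under 0.05. Cpe, the carboxypeptidase that trims prohormones, stood at 335, 321 and 189 CPM against 556 and 571 CPM (-1.0 ± 0.48). Scg2 and the activity-linked Vgf overlapped between the groups, and Vgf, at 0.32 ± 0.88, had no stable direction.

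**Figure D4:**
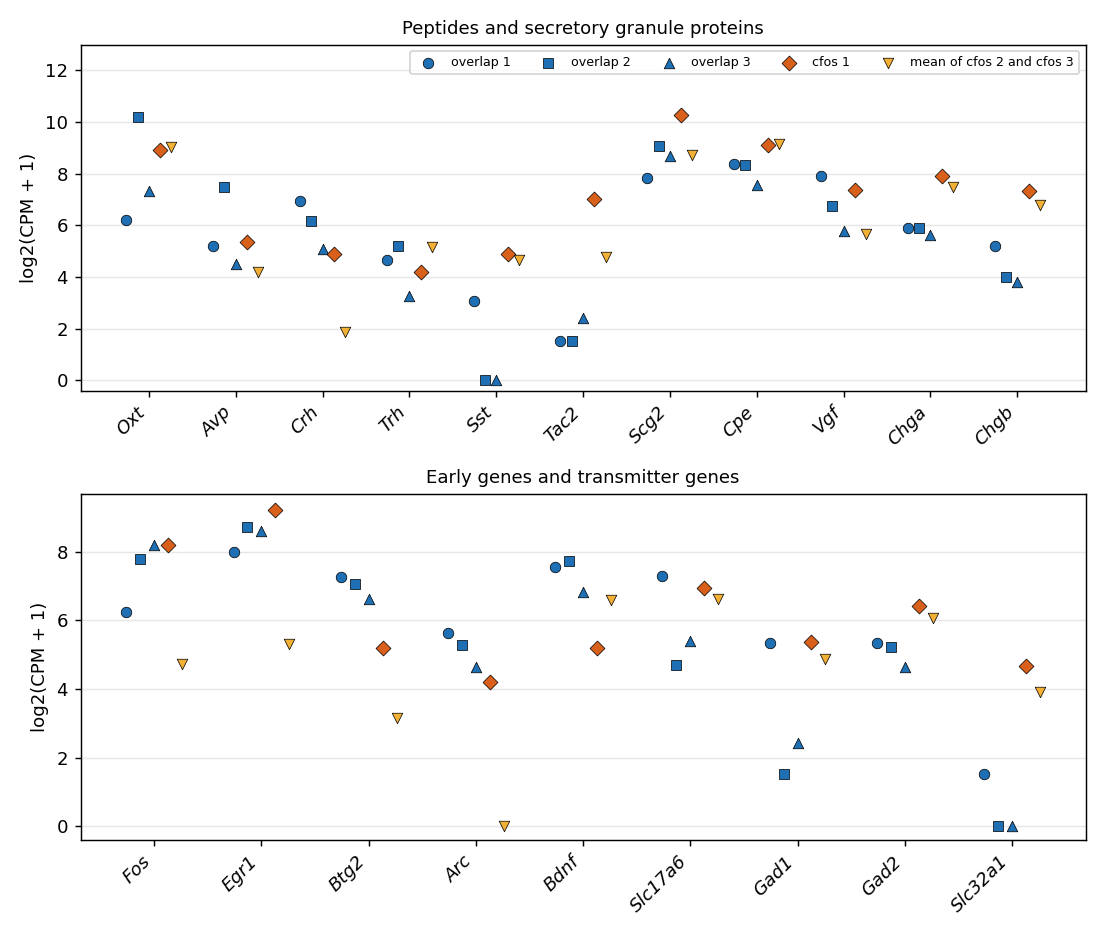
Level of peptide and granule genes (upper panel) and of early and transmitter genes (lower panel) as log2(CPM + 1), 1 symbol per replicate. Oxt and Avp overlap between the groups, Tac2, Chga and Chgb lie lower in overlap, Crh and Btg2 lie higher, and Fos and Egr1 are high in cfos 1 and low in cfos 2/3.

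Of 10 genes of transmitter identity 6 were tested and all 6 were below 0, with a median of -1.17 and no unadjusted p under 0.05. Slc17a6, the vesicular glutamate transporter VGLUT2 of hypothalamic neurons, stood at 155, 24.7 and 41.4 CPM against 122 and 98.1 CPM (-0.57 ± 0.98), with overlap 1 above both cfos replicates. Gad2, a GABA-making enzyme, stood at 39.3, 36.1 and 24.0 CPM against 84.7 and 66.6 CPM (-1.19 ± 1.07). The groups did not overlap for Gad2, while the second GABA-making enzyme Gad1 overlapped, at 39.3, 1.90 and 4.35 CPM against 40.2 and 28.0 CPM. Slc32a1, the vesicular GABA transporter, did not pass the filter: overlap had 1, 0 and 0 counts, and cfos had 17 and 32. Its ratio of cfos to overlap was 25.0, with an exact (Clopper-Pearson) 95% interval of 4.28 to 1007 that covers counting error only. Slc17a7, the glutamate transporter VGLUT1, also under the filter and named after its values were seen, had 0 counts in every overlap replicate and 19 and 44 in cfos, at least 10.7-fold higher in cfos. Slc17a8, the transporter VGLUT3, likewise under the filter and named after its values were seen, lay the other way with 6, 1 and 0 counts in overlap and 0 in cfos, and with no count filter 9 of the 10 genes were below 0.

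Factors that specify the PVH were present in both groups. Sim1, without which these neurons do not form in the mouse, stood at 84.3, 38.0 and 10.9 CPM against 20.1 and 81.9 CPM. Pou3f2, which acts downstream of Sim1, stood at 236, 251 and 203 CPM against 129 and 218 CPM. Neither gene separated the groups, and 0 of the 7 tested factors had groups apart. Otp, which the same neurons need, fell short of the filter: the overlap replicates held 5, 4 and 1 counts, the cfos replicates 8 and 15. In CPM it overlapped between the groups, at 9.36, 7.59 and 2.18 against 11.5 and 6.57.

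Immediate early genes split the 2 cfos replicates more than the 2 groups. Of 23 early genes 14 were tested, 10 were above 0 and the median was 0.40. Against cfos 1 alone the median was -0.52, with 9 of 14 below 0, and against cfos 2/3 alone it was 1.78, with 2 of 14 below 0. Egr1, a zinc-finger factor induced with Fos, stood at 253, 416 and 383 CPM in overlap, at 593 CPM in cfos 1 and at 38.5 CPM in cfos 2/3. Like Fos, it was highest in cfos 1, and its log2 fold change of 0.16 ± 0.88 averages a negative and a positive difference. Btg2, an anti-proliferative early gene (chromosome 1, 134075170 to 134079120), was higher in cfos 1 than in cfos 2/3, as Fos was. Unlike Fos, it was lower in both cfos replicates than in every overlap replicate. It stood at 154, 131 and 98.0 CPM in overlap against 35.9 and 7.88 CPM, and was the only early gene at an unadjusted p under 0.05 (log2 fold change 2.57 ± 1.04, unadjusted p of 0.0345, adjusted p of 0.479 by edgeR's quasi-likelihood test, 0.151 to 0.915 in the alternatives). Arc, which acts at active synapses, stood at 48.7, 38.0 and 24.0 CPM against 17.2 and 0 CPM. Bdnf, the neurotrophin, stood at 185, 209 and 111 CPM against 35.9 and 95.5 CPM (1.35 ± 0.78). These 3 genes, Btg2, Arc and Bdnf, lay wholly above both cfos replicates, so they were not lower than cfos 1 as Egr1 was. Btg2 and Arc passed the count filter only with overlap replicates counted, which favours that order. With no count filter 10 of the 23 early genes were below 0. The groups lay apart with overlap higher in only these 3 of the 14 tested genes, against 15.6% of all genes. Among the tested early genes 1 was apart in the other direction, Nr4a2. Its raw counts were 26, 8 and 18 for overlap, against 46 for cfos 1 and 196 for cfos 2/3. These counts overstate the difference, since the tested genes held 473902 to 541760 counts in the overlap replicates and 2479656 in cfos 2/3. Nr4a3, under the filter and named after its values were seen, was not detected in any overlap replicate. It reached 37 counts in cfos 1 and 14 in cfos 2/3, a lower bound of 8.67 for the ratio of cfos to overlap.

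The promoters of the early genes are shown because the cAMP response element, the site of CREB, is a known input to this class. Each sequence is RefSeq's (build GRCm38.p6), runs from 250 bases before to 50 after the gene's start on the gene's strand, and has in capitals the full palindrome TGACGTCA or, where none was found, the half-site TGACG. Pclo and Meg3, an abundant long RNA, are added as genes that stood lower in overlap. The full palindrome stands in 588 of 32851 such promoters (1.79%), and TGACG on either strand, which also lies in every full palindrome on both strands, in 6837 (20.8%).
Fos, chr12:85473640-85473939, plus strand: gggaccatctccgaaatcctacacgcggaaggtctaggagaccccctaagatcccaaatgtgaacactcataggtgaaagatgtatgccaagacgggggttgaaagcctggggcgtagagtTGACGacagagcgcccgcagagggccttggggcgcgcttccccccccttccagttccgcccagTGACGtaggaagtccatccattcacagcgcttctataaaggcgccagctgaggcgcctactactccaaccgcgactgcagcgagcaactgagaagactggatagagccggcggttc
Btg2, chr1:134079106-134079405, minus strand: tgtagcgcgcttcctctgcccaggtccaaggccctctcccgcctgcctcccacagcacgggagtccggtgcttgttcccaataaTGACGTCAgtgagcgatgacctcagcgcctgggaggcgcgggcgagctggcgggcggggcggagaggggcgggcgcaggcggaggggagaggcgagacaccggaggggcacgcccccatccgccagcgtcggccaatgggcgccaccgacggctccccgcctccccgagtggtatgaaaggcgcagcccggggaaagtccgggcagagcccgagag
Meg3, chr12:109540746-109541045, plus strand: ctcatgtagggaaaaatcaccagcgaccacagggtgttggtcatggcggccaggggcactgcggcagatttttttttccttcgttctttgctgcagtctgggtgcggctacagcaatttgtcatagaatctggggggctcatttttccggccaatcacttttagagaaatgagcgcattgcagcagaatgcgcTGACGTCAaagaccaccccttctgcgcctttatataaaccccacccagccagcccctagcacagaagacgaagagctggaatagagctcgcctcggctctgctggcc
Pclo, chr5:14514668-14514967, plus strand: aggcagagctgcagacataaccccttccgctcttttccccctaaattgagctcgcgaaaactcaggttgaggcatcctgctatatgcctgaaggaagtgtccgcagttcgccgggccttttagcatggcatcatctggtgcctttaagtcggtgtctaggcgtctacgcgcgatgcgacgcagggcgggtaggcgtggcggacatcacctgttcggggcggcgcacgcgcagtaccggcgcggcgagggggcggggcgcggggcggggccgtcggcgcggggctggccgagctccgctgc
The window of Fos held 2 half-sites and 0 full sites, those of Btg2 and Meg3 held 1 full site each, and that of Pclo held neither. Btg2 stood higher and Meg3 lower in overlap, so a full site was found beside differences in both directions. A match describes these letters and is not evidence of binding.

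A pair of hormone receptors lay higher in overlap. Avpr1b, the vasopressin receptor best known from pituitary corticotrophs, stood at 43.1, 49.3 and 124 CPM against 11.5 and 2.63 CPM (3.38 ± 1.44, unadjusted p of 0.0417). Lepr, the leptin receptor, stood at 59.9, 15.2 and 67.5 CPM against 8.61 and 1.75 CPM (3.23 ± 1.63). Both had every overlap replicate above both cfos replicates. The cfos replicates held only 8 and 6 counts of Avpr1b and 6 and 4 of Lepr. Both genes passed the count filter only through overlap, which favours that order. Of 36 peptide and monoamine receptor genes 11 were tested, with 5 above 0 and a median of -0.32, so the list as a whole did not lean that way. The groups lay apart with overlap higher in 2 of the 11, against 15.6% of all genes, and lower in 1, against 11.9%. Among glucocorticoid targets, Fkbp5, a co-chaperone that the hormone-bound receptor induces, stood at 191, 123.4 and 102 CPM against 33.0 and 51.7 CPM (1.70 ± 0.84). Per1, a clock gene that glucocorticoids also induce, lay the other way at 5.62, 30.4 and 8.71 CPM against 167 and 37.7 CPM (-2.76 ± 1.28). Neither had an unadjusted p under 0.05, and 6 of the 8 tested members of the list were below 0.

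Markers of other cell types differed between the groups alongside the neuronal genes. The summed level of 11 of the 12 oligodendrocyte markers was 187, 93.0 and 235 CPM in overlap and 415 and 369.6 CPM in cfos. All 7 tested markers were below 0, with a median of -2.05, and 5 had groups apart. Mal, a myelin proteolipid, had 1, 0 and 0 counts in overlap against 35.9 and 29.8 CPM in cfos. Mobp, another myelin protein, had a log2 fold change of -2.08 ± 1.40. Mog, a late myelin marker, had 0 to 3 counts in every replicate.

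The summed level of 16 astrocyte markers was 1115 to 1296 CPM in overlap, 2012 CPM in cfos 2/3 and 4633 CPM in cfos 1, where Apoe gave most of the excess. Slc1a2, the astrocytic glutamate transporter GLT-1, stood at 213, 213 and 122 CPM against 346 and 555 CPM (-1.30 ± 0.52), and Slc1a3, the transporter GLAST, at 406, 304 and 261 CPM against 398 and 399.8 CPM. Of the 12 tested markers 8 were below 0, 6 were apart with overlap lower and 1 (Sox9) with overlap higher. Gfap, the astrocyte filament, had 1 to 3 counts in overlap, 5 in cfos 1 and 52 in cfos 2/3. In CPM it stood at 5.62, 3.80 and 2.18 in overlap, at 7.18 in cfos 1 and at 22.8 in cfos 2/3.

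Microglial markers lay higher in overlap, at 320.2, 262 and 200.3 CPM summed against 113 and 112 CPM. Of 12 markers 5 were tested and 4 had groups apart with overlap higher. C1qa, a complement subunit, stood at 99.2, 91.1 and 76.2 CPM against 14.4 and 47.3 CPM (1.51 ± 1.05). Cx3cr1, the fractalkine receptor, stood at 82.4, 89.2 and 82.7 CPM against 23.0 and 46.4 CPM, and overlaps Wdr48 on the opposite strand. Trem2, a microglial lipid receptor, had 10, 22 and 1 counts in overlap and 0 in cfos, at least 21.6-fold higher. The defining markers P2ry12 and Tmem119 had 0 to 3 counts in every replicate.

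Ttr, transthyretin, which the choroid plexus makes in bulk, did not pass the filter and had 5 counts in each overlap replicate, 405 in cfos 1 and 14 in cfos 2/3. It was named after its values were seen. In CPM it stood at 581 in cfos 1 and at 6.13 to 10.9 elsewhere, and Rax, a tanycyte factor, had 0 counts throughout. Endothelial and mural markers overlapped between the groups, with 884 to 997 CPM summed in overlap and 683 and 1031 CPM in cfos, and red cell markers were at 4.35 CPM or less in each replicate. The share of these other cells in the differences of neuronal genes was not tested. Elavl3, an RNA-binding protein of neurons in general, stood at 412, 366 and 381 CPM against 553 and 546 CPM (-0.51 ± 0.44), with each overlap replicate below both cfos replicates. Of the 15 tested neuronal RNA-binding protein genes 11 were below 0, with a median of -0.64, and 4 were apart with overlap lower and 1 with overlap higher. Nova1, a neuronal splicing factor, stood at 1.87, 7.59 and 8.71 CPM against 48.8 and 35.0 CPM. RNA of these neuronal genes was found in both groups.

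**Figure D5:**
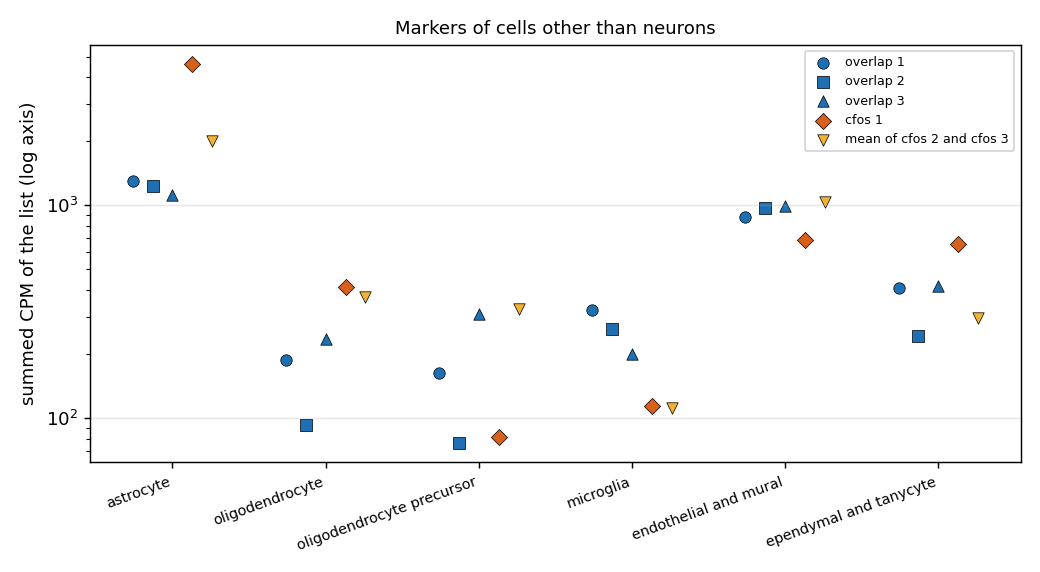
Summed CPM of the markers of 6 other cell types in each replicate, on a log axis, over 11 of 12 markers for oligodendrocytes and all markers for the other types. Oligodendrocyte and astrocyte markers are lower in all 3 overlap replicates (blue) than in both cfos replicates, microglial markers are higher, and the other 3 lists overlap between the groups.

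Housekeeping genes did not share one direction. Of 66 tested cytosolic ribosomal protein genes 48 were below 0, with a median of -0.42. Rpl29 stood at 58.0, 11.4 and 342 CPM against 1.44 and 3.94 CPM, while Rps9 stood at 15.0, 3.80 and 0 CPM against 87.6 and 127 CPM. Single members thus lay far apart in both directions, and ribosomal genes share near-identical pseudogenes between which reads can be split. Of 39 tested nuclear genes for oxidative phosphorylation 28 were below 0, with a median of -0.72, which was -1.29 against cfos 1 alone and -0.25 against cfos 2/3 alone. Atp5f1, a subunit of the ATP synthase, stood at 35.6, 139 and 298 CPM against 30.1 and 12.3 CPM (2.91 ± 1.12), while Ndufa2, a complex I subunit overlapping Tmco6 on the opposite strand, stood at 5.62, 11.4 and 4.35 CPM against 215 and 28.9 CPM (-4.06 ± 1.30). The mitochondrial genome's own 37 genes had no count in any column.

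Mitochondrial ribosomal protein genes had 22 of 32 tested members above 0 and a median of 0.31. The groups lay apart with overlap higher in 7 of the 32, against 15.6% of all genes, and lower in 2, against 11.9%. The lean turned with the filter: with no count filter 43 of 76 members were below 0 and the median was -0.14. Mrpl13 was the steadiest of the named members, at 78.6, 68.3 and 71.8 CPM against 8.61 and 20.1 CPM (2.31 ± 1.21). It passed the count filter only with overlap replicates counted, which favours that order. Proteasome subunits were split, with Psma1 at 107, 106 and 209 CPM against 31.6 and 23.7 CPM (2.35 ± 0.90) and Psmd7 at 59.9, 161 and 139 CPM against 400.4 and 272 CPM (-1.48 ± 0.61). Glycolytic genes had 8 of 15 tested members above 0. The groups lay apart with overlap lower in 6 of the 15, against 11.9% of all genes, and higher in 2, against 15.6%. Gapdh, which lies opposite Iffo1, overlapped between the groups at 2659 to 6947 CPM against 2342 and 3176 CPM. Aldoa, an aldolase, stood lower, with log2 fold changes of -4.65 to -2.64 in the alternative runs. Pfkl, the liver-type phosphofructokinase, stood higher, at 103, 233 and 316 CPM against 37.3 and 83.2 CPM (1.84 ± 0.77).

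Heat shock genes included a pair that was nearly unseen in cfos. The pair passed the count filter only through overlap, which favours higher values there. The groups lay apart with overlap higher in 2 of the 12 tested members, against 15.6% of all genes, and lower in 3, against 11.9%. Hspb1, the small heat shock protein HSP27, stood at 7.49, 51.2 and 109 CPM in overlap with 0 counts in cfos, at least 52.9-fold higher, and Hspa1a, inducible HSP70, stood at 30.0, 131 and 19.6 CPM against 0 and 2.19 CPM. Hsp90ab1, a constitutive chaperone, overlapped between the groups at 685, 1461 and 936 CPM against 3007 and 1422 CPM, and Hsp90b1, of the endoplasmic reticulum, stood lower at -1.28 ± 0.55 with groups that did not overlap. Of the 12 tested members 9 were below 0, and the median of -1.02 was -1.71 against cfos 1 alone and -0.27 against cfos 2/3 alone.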

How the data were processed

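Counts were made by the authors and deposited as raw counts per gene, in 1 table of 54838 genes. The tools named in the submitters' processing notes are STAR, featureCounts, Trim Galore and UMI-tools, with mm10. Versions, annotation, strand setting and whether identifiers were collapsed are not given here, and PCR copies may be counted, so every interval and floor covers counting error alone. For coordinates and gene types, 54809 IDs matched GENCODE M21.

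Genes passed edgeR's filterByExpr by group (minimum count 10), counts were scaled by TMM, and overlap (n = 3) was compared with cfos (n = 2, cfos 2 and cfos 3 averaged and rounded) by a robust quasi-likelihood fit without covariates (R 4.3.3, edgeR 4.0.16, limma 3.58.1, DESeq2 1.42.0). The mCherry columns stayed out of the fit, because 0 genes had more counts in mCherry 2 than in mCherry 1 and 3 added, so it may not be independent. SE is the log2 fold change over the square root of F. A group at 0 counts was set to 3 counts over the group for a bound.

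Named were the 10 genes of smallest p per direction (annotated, protein-coding, at least 20 CPM on average, groups apart), 12 PVH genes, and per list up to 3 of highest level and 3 of smallest p per direction. The comparison and its gene lists were chosen with earlier results of these data known. Alternatives were other scalings, filters, tools, groups and columns left out. Some named genes are not reported here, and summed marker levels leave them out, while counts and medians of lists keep them.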

Additional observations from a re-analysis of the deposited data

How the results depend on the processing

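With no count filter 66 genes were called (39 higher and 27 lower), with 1962 higher and 781 lower at an unadjusted p under 0.05, and DESeq2 called 504. Genes lower at an unadjusted p under 0.05 numbered 415 with DESeq2, 645 with limma-voom and sample weights, 502 with cfos 2 and cfos 3 as separate columns, and 516 with all 3 groups and mCherry 2. Leaving out each replicate in turn, 0 to 13 genes were called, 540 (without overlap 2) to 1672 (without cfos 2/3) stood higher and 161 (without overlap 1) to 683 (without cfos 2/3) stood lower at an unadjusted p under 0.05. The 13 were called without cfos 2/3, where cfos 1 stands alone and is assumed to vary like overlap. Whether replicate numbers pair the samples could not be decided, because cfos 2 and cfos 3 are nearly the same column. The correlation of deviations between same-numbered overlap and cfos columns was 0.02, -0.05 and 0.05. Between columns of different number it was -0.06 to 0.06. A fit with the replicate block called 0 genes, as the main fit did, with 767 higher and 282 lower at an unadjusted p under 0.05. The log2 fold change turned sign when single replicates were left out for Oxt (-2.22 to 0.42), Vgf (-0.47 to 1.35), Fos (-0.76 to 2.87), Avp (-0.16 to 2.11), Egr1 (-0.92 to 3.12), Trh (-0.72 to 0.26) and Sim1 (-1.03 to 0.98); the cause was not tested. Of the other values, 1516 of named genes kept their direction and their side of the threshold and 43 newly passed it, and 388 list medians stayed within the spread between replicates while 77 did not. The median turned sign in at least 1 alternative for 10 lists: potassium channels (-0.25 to 0.31), glycolysis (-0.23 to 0.49), mitochondrial ribosomal proteins (-0.17 to 1.12), immediate early genes (-0.76 to 2.44), PVH peptides (-0.98 to 0.54), PVH factors (-0.76 to 0.09), GABA receptors (-0.83 to 0.13), peptide and monoamine receptors (-0.85 to 1.87), endothelial markers (-0.19 to 1.0) and oligodendrocyte precursor markers (-1.87 to 2.38). Depth limits the rare genes, since 3 counts are 5.02 to 5.94 CPM in overlap and 0.879 to 4.28 CPM in cfos.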
